A study of Solanum lycopersicum with 6 samples.

Results

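The 10 tomato genes described here belong to signalling at the cell surface and inside the cell. They are the receptor kinases FLS2 and BRI1, the co-receptor kinases SERK1, SERK3A and SERK3B, the MAP kinases MPK1, MPK2 and MPK3, and 2 RBOH NADPH oxidases. They were chosen by identifier, and each identifier matched 1 of the 35768 gene models in the deposited table, so the group holds 10 of 35768 models. The names come with the list of identifiers. Since the counts were deposited under identifiers alone, neither the names nor the leaf origin of the RNA could be checked against named genes. Both oxidases are given by identifier, RBOH Solyc03g117980 and RBOH Solyc08g081690.

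In plants, receptor kinases in the plasma membrane bind a ligand outside the cell and then pair with a SERK co-receptor. FLS2 binds a peptide of bacterial flagellin and starts pattern-triggered immunity, and BRI1 binds brassinosteroid hormones and promotes growth. MAP kinases pass the signal on inside the cell by phosphorylating other proteins, and RBOH oxidases make superoxide outside the membrane, the source of the oxidative burst.

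The series comprises 3 kinds of library from true leaves of tomato (Solanum lycopersicum), with 2 replicates of each, and the labels name no genotype or variety. LTM libraries hold ribosome footprints, the mRNA pieces shielded from RNase by a ribosome, from leaves treated with LTM, an abbreviation the labels leave unexplained; the extract then received puromycin, which releases elongating ribosomes, and the labels give these footprints as initiating ribosomes. CHX libraries hold footprints from extracts made in 100 µg/ml cycloheximide, which arrests elongating ribosomes, and their source label calls the leaves CHX-treated. For the mRNA libraries, total RNA was taken from part of the CHX extract and freed of rRNA. Transcript levels in LTM-treated leaves were therefore not analysed here. The growth chamber was kept at 28 °C with a 12 h day, and plant age is labelled as 3 weeks in one field and 2 weeks in another.

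Total counts were 18240140 and 38983295 in the LTM libraries, 48704200 and 47856048 in CHX, and 24810169 and 30371574 in mRNA. Levels below are CPM, the count of a gene scaled to the total of its library, written for replicate 1 and then replicate 2. The count of a gene spans its coding region in footprint libraries and its transcript region in mRNA libraries. CPM is not divided by length, and no lengths were paired with these identifiers, so levels are compared for the same gene between libraries and not between genes. All 10 genes passed the filter on low counts and were among the 20806 models tested. SERK1 would not have passed it without its mRNA libraries, so its calls of lower than mRNA are given as description only. Log2 fold changes with their standard errors (SE) and Benjamini-Hochberg adjusted p-values come from edgeR's quasi-likelihood test over those models, with a threshold of 0.05. Separate plants for the replicates are not stated in the labels, and the p-values therefore reflect a spread that may be technical.

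Elongating footprints against mRNA were low for the receptors and co-receptors and high for a pair of MAP kinases. In CHX vs mRNA, which asks how many elongating ribosomes a transcript carries for its amount, FLS2, BRI1, all 3 SERK genes and RBOH Solyc08g081690 were lower, and MPK1 and MPK2 were higher. MPK3 and RBOH Solyc03g117980 did not pass the test. The 6 genes called lower stand against 27.4% of all tested models, and the 2 called higher against 22.5%. Among the 6 is SERK1, which passed the filter because its mRNA libraries were high, so its call adds no support. The median log2 fold change was -0.99 over the 10 genes and -0.02 over all tested models. Each of these values also varies with the untranslated share of the transcript, which is in the mRNA counts and not in the footprint counts.

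Initiating against elongating footprints showed 3 genes far above the rest of the group. In LTM vs CHX, MPK3, RBOH Solyc03g117980 and FLS2 were at least 8-fold higher, BRI1 was modestly higher and MPK2 was lower. The other 5 genes, SERK1, SERK3A, SERK3B, MPK1 and RBOH Solyc08g081690, did not pass the test. The 4 genes called higher stand against 22.4% of all tested models, and the 1 called lower against 19.6%; a call of higher with a fitted fold of at least 8 was made for 3 of the 10 genes and for 6.17% of all tested models. The median log2 fold change was 0.31 over the 10 genes and -0.01 over all tested models, with the genes running from -0.55 to 5.32. Whether these fold changes vary with coding length was not tested, since no lengths were paired with these identifiers. In RNA of whole leaves, a different share of the cells that use a gene and a different amount per cell cannot be told apart. The LTM and CHX libraries also come from differently treated leaves, and no mRNA from LTM-treated leaves was analysed. More transcript in the LTM-treated leaves and more initiating ribosomes on each transcript therefore cannot be told apart here.

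Initiating footprints exceeded mRNA for 3 genes and fell short of it for 4. In LTM vs mRNA, MPK3, RBOH Solyc03g117980 and FLS2 were higher, against 25.5% of all tested models called higher. SERK1, SERK3A, SERK3B and RBOH Solyc08g081690 were lower, against 27.4% called lower. Here too the SERK1 call adds no support, since the gene passed the filter because its mRNA libraries were high. BRI1, MPK1 and MPK2 did not pass the test. The median was 0.17 over the 10 genes and 0.02 over all tested models. As in CHX vs mRNA, each value also varies with the untranslated share of the transcript. This comparison uses the LTM libraries of the second comparison and the mRNA libraries of the first, so the 3 sets of calls are not independent of one another. Its 2 kinds also come from differently treated leaves, so more transcript in the LTM-treated leaves and more initiating ribosomes on each transcript cannot be told apart.

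**Figure D1:**
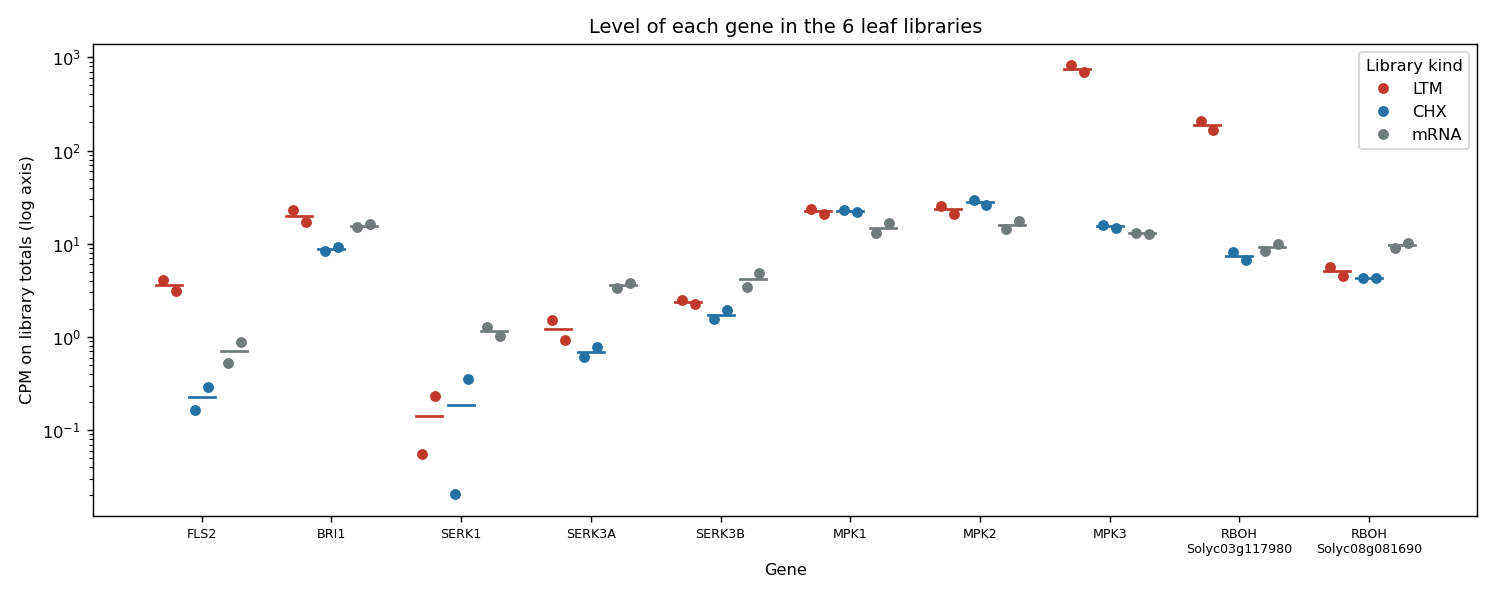
Level of each of the 10 genes in CPM on library totals (log axis), with 1 point per library and a bar at the mean of the 2 replicates of LTM (red), CHX (blue) and mRNA (grey). MPK3 and RBOH Solyc03g117980 stand at 688 to 819 and 166 to 208 CPM in LTM, while their CHX and mRNA points lie between 6.71 and 15.9 CPM.

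FLS2 (Solyc02g070890), the flagellin receptor, had few counts in CHX and mRNA and more in LTM. It had 4.06 and 3.13 CPM in LTM, 0.164 and 0.293 CPM in CHX, and 0.524 and 0.889 CPM in mRNA. The LTM libraries lay above all 4 others, and the CHX libraries lay below both mRNA libraries. The values rest on 74 and 122 counts in LTM, 8 and 14 in CHX, and 13 and 27 in mRNA, and the exact 95% binomial interval of the CHX replicate 2 level, 0.160 to 0.491 CPM, overlaps that of mRNA replicate 1, 0.279 to 0.896 CPM. These intervals cover counting error only.

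FLS2 footprints in LTM were 12.6-fold higher than those in CHX in the fit (log2 fold change 3.66, SE 0.34, edgeR adjusted p = 0.000126), and 963 of the 20806 tested models had a larger value. Against mRNA the LTM footprints were 4.14-fold higher (log2 2.05, SE 0.31, edgeR adjusted p = 0.00105). In CHX vs mRNA the gene was lower, at -1.61 on the log2 scale (SE 0.39, edgeR adjusted p = 0.0109). That last call was lost without CHX replicate 1 (edgeR adjusted p = 0.0575) and without mRNA replicate 2 (edgeR adjusted p = 0.0952).

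BRI1 (Solyc04g051510), the brassinosteroid receptor, had 22.9 and 17.1 CPM in LTM, 8.32 and 9.15 CPM in CHX, and 15.1 and 16.2 CPM in mRNA. Its CHX libraries were the low ones, below every LTM and mRNA library, and its LTM libraries lay just above those of mRNA. LTM exceeded CHX by 0.90 on the log2 scale (SE 0.16, edgeR adjusted p = 0.00381), and CHX stood at -0.83 against mRNA (SE 0.16, edgeR adjusted p = 0.00455). LTM vs mRNA gave 0.07 (SE 0.16, edgeR adjusted p = 0.745), and -0.12 without LTM replicate 1. Of the 2 kinds of footprint, the elongating ones were thus the low ones for this receptor's mRNA.

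The 3 SERK co-receptors had few footprints of either kind for their mRNA. SERK3A (Solyc10g047140) had 1.54 and 0.923 CPM in LTM, 0.616 and 0.773 CPM in CHX, and 3.39 and 3.82 CPM in mRNA. SERK3B (Solyc01g104970) had 2.47 and 2.26 CPM in LTM, 1.54 and 1.92 CPM in CHX, and 3.47 and 4.84 CPM in mRNA. In both genes every mRNA library lay above every footprint library.

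SERK3A stood at -2.36 in CHX vs mRNA (SE 0.27, edgeR adjusted p = 0.000488) and at -1.88 in LTM vs mRNA (SE 0.27, edgeR adjusted p = 0.000821). SERK3B stood at -1.24 in CHX vs mRNA (SE 0.20, edgeR adjusted p = 0.00197) and at -1.08 in LTM vs mRNA (SE 0.20, edgeR adjusted p = 0.00301). Between the 2 kinds of footprint neither passed the test, at 0.47 for SERK3A (SE 0.30, edgeR adjusted p = 0.235) and 0.16 for SERK3B (SE 0.21, edgeR adjusted p = 0.574), although in library totals both LTM libraries lay above both CHX libraries in each gene. SERK3A and SERK3B are close relatives, and reads shared between them may have been split or dropped in counting. With their counts summed, the values were -1.66 in CHX vs mRNA (SE 0.18, edgeR adjusted p = 0.000366) and -1.39 in LTM vs mRNA (SE 0.18, edgeR adjusted p = 0.000459).

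SERK1 (Solyc04g072570), whose Arabidopsis relative acts in anther development and as a co-receptor, was measured at the edge of detection. It had 1 and 9 counts in LTM, 1 and 17 in CHX, and 32 and 31 in mRNA, which is 0.0548 and 0.231 CPM in LTM, 0.0205 and 0.355 CPM in CHX, and 1.29 and 1.02 CPM in mRNA. The mRNA replicates were alike, whereas the CHX replicates differed 17.3-fold. The gene was lower in CHX than in mRNA, at -2.61 (SE 0.78, edgeR adjusted p = 0.0256), and in LTM than in mRNA, at -3.01 (SE 0.87, edgeR adjusted p = 0.0204). Both calls describe a gene that passed the filter because its mRNA libraries were high.

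Neither SERK1 call held throughout when 1 library was left out. CHX vs mRNA lost it without CHX replicate 1 (log2 -1.72, edgeR adjusted p = 0.0596), without mRNA replicate 1 (edgeR adjusted p = 0.113) and without mRNA replicate 2 (edgeR adjusted p = 0.0660), and the log2 value was -5.52 without CHX replicate 2. LTM vs mRNA lost it without LTM replicate 1 (edgeR adjusted p = 0.0636), mRNA replicate 1 (edgeR adjusted p = 0.0837) or mRNA replicate 2 (edgeR adjusted p = 0.0529), and the log2 value was -4.59 without LTM replicate 2. LTM vs CHX gave -0.41 with an SE of 1.02 (edgeR adjusted p = 0.780), and 2.51 without CHX replicate 2. The 2 CHX libraries had nearly equal totals, and their exact 95% intervals of 0.00052 to 0.114 and 0.207 to 0.569 CPM did not overlap, so these replicates differed by more than counting error.

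**Figure D2:**
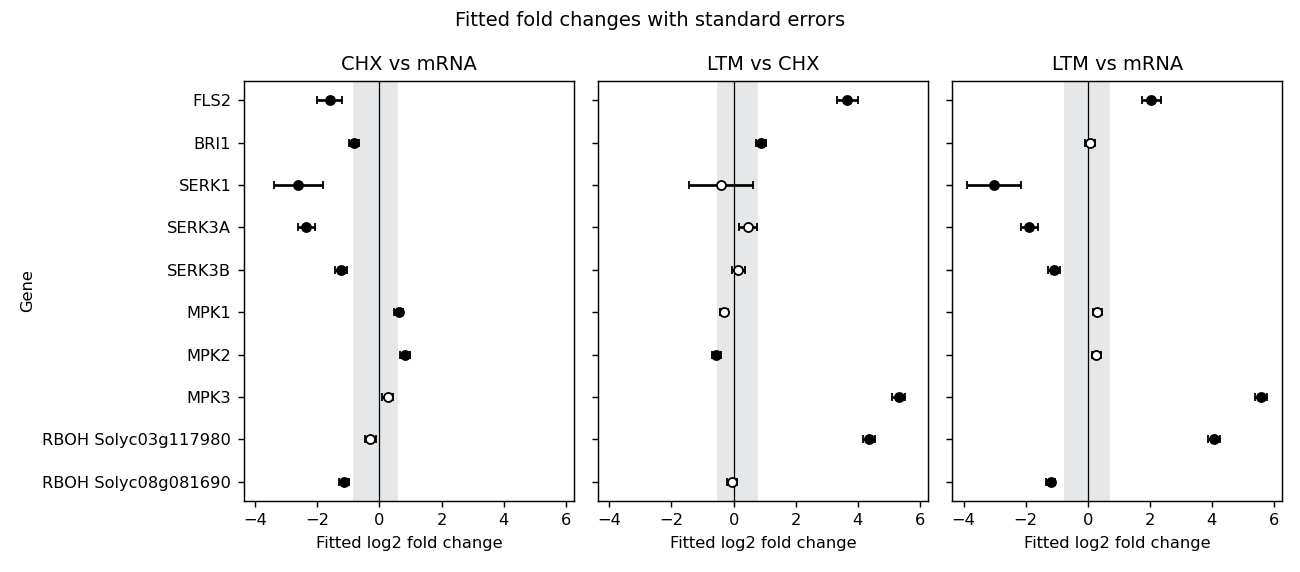
Fitted log2 fold change (x axis) of each of the 10 genes in each of the 3 comparisons, with bars of 1 SE. Filled points passed the edgeR threshold, open points did not, and the grey band spans the interquartile range of all tested models; MPK3 lies at 5.32 in LTM vs CHX and the 3 SERK genes lie between -2.61 and -1.24 in CHX vs mRNA.

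MPK1 and MPK2, closely related MAP kinases, were both higher in CHX than in mRNA. MPK1 (Solyc12g019460) had 23.7 and 20.7 CPM in LTM, 22.9 and 21.9 CPM in CHX, and 13.1 and 16.6 CPM in mRNA. MPK2 (Solyc08g014420) had 25.6 and 21.1 CPM in LTM, 29.4 and 26.2 CPM in CHX, and 14.3 and 17.5 CPM in mRNA. For both genes the 2 mRNA libraries were the low ones, below all 4 footprint libraries, and reads shared between these relatives may have been split or dropped in counting.

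Elongating footprints exceeded mRNA for MPK1 by 0.62 on the log2 scale (SE 0.14, edgeR adjusted p = 0.00780), a call lost without mRNA replicate 1 (edgeR adjusted p = 0.0648). MPK2 exceeded it by 0.83 (SE 0.15, edgeR adjusted p = 0.00350). In LTM vs CHX MPK2 was lower, at -0.55 (SE 0.15, edgeR adjusted p = 0.0219), while MPK1 stood at -0.31 (SE 0.14, edgeR adjusted p = 0.109). The MPK2 call was lost without LTM replicate 2 (edgeR adjusted p = 0.111), without CHX replicate 1 (edgeR adjusted p = 0.120), without mRNA replicate 2 (edgeR adjusted p = 0.0612) and under other settings given in the closing section, and with library totals in place of TMM factors the value was -0.26 (edgeR adjusted p = 0.357). With the counts of the pair summed, LTM vs CHX gave -0.44 (SE 0.15, edgeR adjusted p = 0.0443). In LTM vs mRNA neither passed the test, at 0.31 for MPK1 (SE 0.14, edgeR adjusted p = 0.0930) and 0.28 for MPK2 (SE 0.15, edgeR adjusted p = 0.167); with library totals both passed it, at 0.58 (edgeR adjusted p = 0.0285) and 0.55 (edgeR adjusted p = 0.0397).

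MPK3 (Solyc06g005170), the third MAP kinase and one that acts in wound and defence signalling in tomato, behaved unlike this pair. It had 819 and 688 CPM in LTM, 15.9 and 14.9 CPM in CHX, and 12.9 and 12.8 CPM in mRNA, or a mean of 753 ± 92.8, 15.4 ± 0.731 and 12.9 ± 0.0688 CPM (SD, n = 2 each). CHX and mRNA replicates were close together, and both LTM libraries were far above them. The LTM values rest on 14936 and 26808 counts. On library totals the replicates differed by more than counting error, with exact 95% intervals of 806 to 832 and 679.5 to 696 CPM. The count ratio of MPK3 to the sum of MPK1 and MPK2 was nevertheless alike in these libraries, at 16.6 and 16.5.

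MPK3 was 39.8-fold higher in LTM than in CHX (log2 5.32, SE 0.20, edgeR adjusted p = 1.58e-06), with 432 of the 20806 tested models above it. It was 48.0-fold higher in LTM than in mRNA (log2 5.59, SE 0.21, edgeR adjusted p = 1.15e-06). Leaving out any 1 library gave log2 values between 5.21 and 5.41 in LTM vs CHX. In CHX vs mRNA, by contrast, MPK3 stood at 0.27 (SE 0.17, edgeR adjusted p = 0.225), and at -0.0044 when at least 10 CPM in 2 libraries was required. That filter moved the models it kept by a median of -0.27 (log2) in this comparison.

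RBOH Solyc03g117980 had 208 and 166 CPM in LTM, 8.11 and 6.71 CPM in CHX, and 8.42 and 9.98 CPM in mRNA, or a mean of 187 ± 29.2, 7.41 ± 0.992 and 9.20 ± 1.10 CPM (SD, n = 2 each). Like MPK3 it was high in both LTM libraries alone. LTM was 20.5-fold above CHX (log2 4.36, SE 0.20, edgeR adjusted p = 3.06e-06), with 685 of the tested models above it, and 16.8-fold above mRNA (log2 4.07, SE 0.19, edgeR adjusted p = 3.02e-06). CHX vs mRNA gave -0.29 (SE 0.18, edgeR adjusted p = 0.212), and -0.56 with a call of lower (edgeR adjusted p = 0.0314) when at least 10 CPM in 2 libraries was required. That filter moved the models it kept by a median of -0.27 (log2) in CHX vs mRNA.

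RBOH Solyc08g081690 had 5.65 and 4.54 CPM in LTM, 4.27 and 4.28 CPM in CHX, and 8.91 and 10.3 CPM in mRNA. Its mRNA libraries were the high ones, above all 4 footprint libraries. It was lower in CHX than in mRNA, at -1.15 (SE 0.15, edgeR adjusted p = 0.000930), and lower in LTM than in mRNA, at -1.20 (SE 0.16, edgeR adjusted p = 0.000489). In LTM vs CHX it stood at -0.05 (SE 0.16, edgeR adjusted p = 0.816). Its sign there turned with the scaling and with the libraries used. The value was 0.24 with library totals, where both LTM libraries lay above both CHX libraries, and 0.08 without LTM replicate 2.

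**Figure D3:**
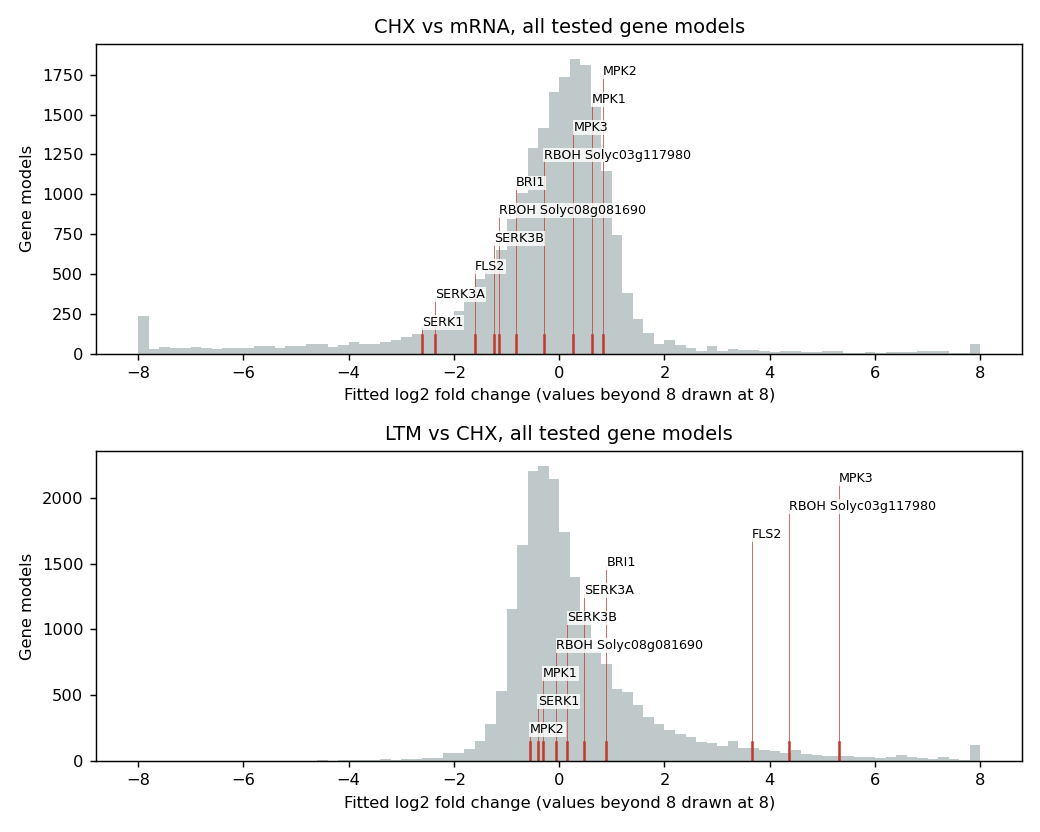
Histograms of the fitted log2 fold changes (x axis) of the 20806 tested gene models in CHX vs mRNA (top) and LTM vs CHX (bottom), with a red line at each of the 10 genes. MPK3, RBOH Solyc03g117980 and FLS2 lie in the thin right tail of LTM vs CHX at 5.32, 4.36 and 3.66, whereas in CHX vs mRNA the genes lie between -2.61 and 0.83.

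MPK3 and RBOH Solyc03g117980 made up most of the group's LTM counts. Together they held 92.3% and 92.4% of the summed counts of the 10 genes in LTM, 26.3% and 24.98% in CHX, and 26.2% and 24.3% in mRNA. The summed level of the 10 genes was 1112 and 924 CPM in LTM, 91.3 and 86.5 CPM in CHX, and 81.4 and 94.0 CPM in mRNA. Without those 2 genes it was 86.0 and 70.0 CPM in LTM, 67.2 and 64.9 CPM in CHX, and 60.1 and 71.2 CPM in mRNA. For these remaining 8 genes the LTM and mRNA libraries overlapped, with LTM replicate 2 below mRNA replicate 2.

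Ratios of counts between 2 genes of the same library do not depend on its depth or scaling. Between the kinds of library, 8 such ratios were compared. Where footprint ratios are set against mRNA ratios, the untranslated share of each transcript does not cancel. The count ratio of MPK3 to the sum of MPK1 and MPK2 was 16.6 and 16.5 in LTM, 0.305 and 0.310 in CHX, and 0.473 and 0.376 in mRNA. The count ratio of RBOH Solyc03g117980 to RBOH Solyc08g081690 was 36.7 and 36.6 in LTM, 1.90 and 1.57 in CHX, and 0.946 and 0.971 in mRNA. Replicates lay close together in both ratios, and the geometric mean of the LTM libraries was 53.8-fold above that of CHX for MPK3 and 21.3-fold above it for the oxidases.

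The count ratio of FLS2 to the sum of SERK3A and SERK3B was 1.01 and 0.984 in LTM, 0.0762 and 0.109 in CHX, and 0.0765 and 0.103 in mRNA. The CHX and mRNA values of this ratio overlapped, and those in LTM were 10.98-fold higher than in CHX. The count ratio of BRI1 to the same sum was 5.73 and 5.37 in LTM, 3.86 and 3.40 in CHX, and 2.21 and 1.87 in mRNA, with no overlap between any 2 kinds. FLS2 over BRI1 was 0.177 and 0.183 in LTM, 0.0198 and 0.0320 in CHX, and 0.0347 and 0.0549 in mRNA.

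The ratio of MPK1 to MPK2 was 1.18-fold higher in LTM than in CHX. SERK3A over SERK3B differed by -1.13 on the log2 scale in CHX vs mRNA and by 0.33 in LTM vs CHX, where leaving out LTM replicate 1 gave 0.03 and leaving out LTM replicate 2 gave 0.63. MPK1 over MPK2 was 0.927 and 0.982 in LTM, 0.778 and 0.835 in CHX, and 0.913 and 0.944 in mRNA, so that CHX was the low kind and LTM and mRNA overlapped. SERK3A over SERK3B was 0.622 and 0.409 in LTM, 0.400 and 0.402 in CHX, and 0.977 and 0.789 in mRNA, and both kinds of footprint lay below mRNA. The count ratio of SERK1 to the sum of the other two spanned 0.0137 to 0.0726 in LTM, 0.00952 to 0.132 in CHX and 0.118 to 0.188 in mRNA. With 2 libraries against 2, the exact two-sided permutation test cannot give a p below 0.333, which is 0.400 after adjustment over the 24 comparisons of the 8 ratios, so none of these differences could pass a threshold.

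**Figure D4:**
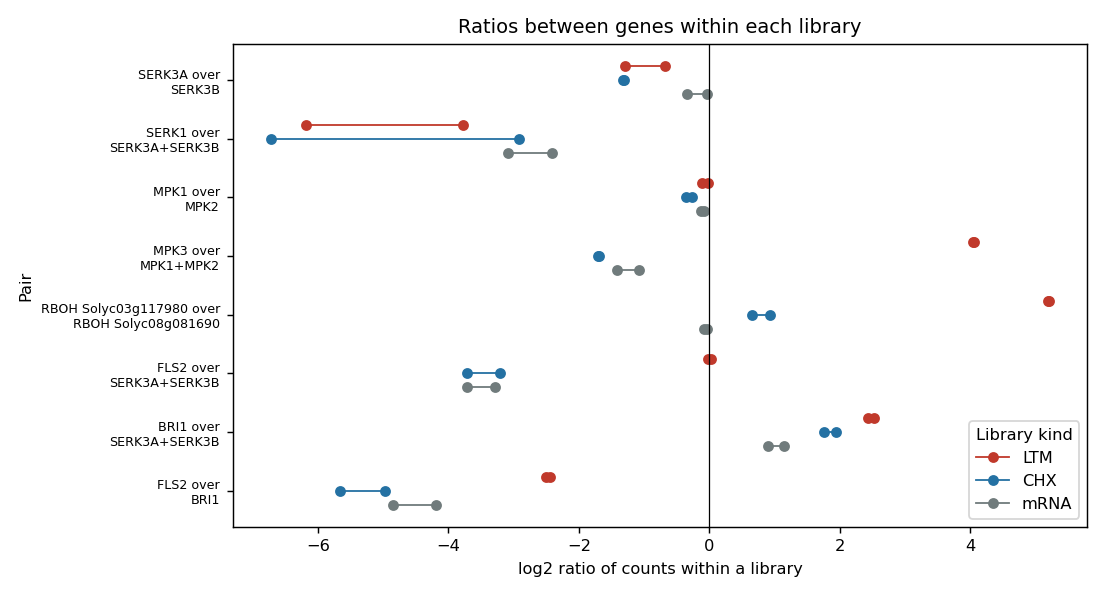
Log2 ratio of the counts of 2 genes, or of a gene and the sum of a pair, within each library (x axis), with 1 point per library joined by a line within LTM (red), CHX (blue) and mRNA (grey). The LTM points stand apart to the right for MPK3 over MPK1+MPK2 at 4.04 to 4.05, for RBOH Solyc03g117980 over RBOH Solyc08g081690 at 5.19 to 5.20, and for both FLS2 ratios.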

How the data were processed

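The authors deposited raw counts per gene model and library. Per the file headers, footprints were counted in coding regions and mRNA in transcript regions. The sources used here state no aligner, counter, genome build or handling of multiply matching reads. Reads were 75-bp single-end and footprints of 26 to 32 nt, per the labels' protocols.

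Groups and replicate numbers came from sample titles. The members and lists were chosen with earlier results of these data known. All 10 members are named, whatever their values. In R 4.3.3, edgeR 4.0.16 kept 20806 models (filterByExpr), scaled libraries by TMM (factors 0.863 to 1.16) and fitted 1 quasi-likelihood model to all 6 libraries with kind as the factor. CPM on library totals describes levels. Alternatives were other scalings (DESeq2 size factors, upper quartile, totals), DESeq2 1.42.0, other filters, fits to 2 kinds, a replicate block, summed relatives and leaving out each library. The procedure was tested on simulated counts. A further list of immune-signalling genes and leaf markers went unused, since 0 entries of the RefSeq gene table (SLM_r2.1) carry these identifiers. Lengths and sequences were not used here.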

Additional observations from a re-analysis of the deposited data

How the results depend on the processing

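Of 429 alternative fold changes of the 10 genes, 409 stayed on their side of the threshold, 15 lost the call, 5 gained one and 0 called values reversed. The 429 include fits with relatives summed. There the sum of MPK1 and MPK2 is set against MPK1, and that of SERK3A and SERK3B against SERK3A. In LTM vs CHX, 1 of the 5 gained calls belongs to the sum of MPK1 and MPK2 and not to a gene alone. MPK3, RBOH Solyc03g117980 and FLS2 kept their calls of higher against CHX and against mRNA under every setting in which they were tested. Requiring 10 CPM in 2 libraries left only 5 of the 10 genes in the test, FLS2 not among them. RBOH Solyc03g117980 passed that filter only through its LTM libraries, where it is high, so its calls of higher under it add no support. Of the 5 members tested under that filter, 2 were lower in CHX vs mRNA, against 28.1% of all models it kept. These 2 were BRI1 and RBOH Solyc03g117980. In LTM vs mRNA 0 were lower, against 27.6%, and in LTM vs CHX 0 were lower, against 20.7%. The counts were smaller in part because fewer members were tested. MPK2 alone was called lower in LTM vs CHX; that count was 2 with upper-quartile factors, where MPK1 joined it (log2 -0.40, edgeR adjusted p = 0.0366), and 0 with library totals and in a fit to the 2 kinds compared (edgeR adjusted p = 0.0613). Library totals moved all models by a median of 0.29 (log2) in LTM vs CHX and by 0.27 against mRNA. They left 5.90% of all models lower in LTM vs CHX, so that 82.6% of calls were upward against 53.3% with TMM. In LTM vs mRNA they gave 5 members higher, against 32.9% of all models, and 62.2% of calls were upward against 48.2% with TMM. Leaving out 1 library gave 1 to 2 members higher and 4 to 6 lower in CHX vs mRNA. Among all models it gave 12.3% to 23.2% higher and 18.8% to 28.2% lower in that comparison. In LTM vs CHX it gave 0 to 1 members lower, against 11.6% to 16.2% of all models. Beyond the fewer libraries, the cause was not tested. No label ties a replicate number to an extract or day. Deviations of same-numbered libraries correlated at 0.338 for LTM and CHX, 0.207 for LTM and mRNA and 0.356 for CHX and mRNA. A replicate block changed no call of a member. In LTM vs CHX it left 4 members higher and 1 lower, against 25.6% and 25.5% of all models. In LTM vs mRNA it left 3 higher and 4 lower, against 29.1% and 30.3%. In CHX vs mRNA it left 2 higher and 6 lower, against 27.0% and 30.4%. All of these shares were above those of the main fit. CPM with TMM factors in place of library totals moved 9 of 30 mean levels by more than 1 SD, MPK3 in LTM to 660 CPM. In CHX, counts were lowest for SERK1 and FLS2, with 18 and 22 over both libraries, and the SERK1 counts there differed between replicates by more than counting error.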
